A study of Mus musculus with 6 samples.

Results

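The mitochondrial ribosome, or mitoribosome, is the machine that makes the few proteins encoded in mitochondrial DNA. All of its proteins are encoded in the nucleus, made in the cytoplasm and imported, while its RNAs are transcribed from mitochondrial DNA. The genes of its proteins were taken by symbol: every symbol that starts with Mrpl (large subunit) or Mrps (small subunit) followed by a digit, without pseudogenes. This gave 76 of the 38926 gene symbols counted, 47 of the large and 29 of the small subunit. The 4 pseudogenes left out were Mrpl23-ps1, Mrpl48-ps, Mrps36-ps1 and Mrps36-ps2.

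Levels were compared between 3 control and 3 Dpy30 knockout samples of hematopoietic stem cells (HSCs) sorted from mouse fetal liver at E14.5. The protein Dpy30 is shared by all SET1/MLL enzymes for histone H3 lysine 4 methylation. Both genotypes carried Vav-Cre, a Cre recombinase expressed in blood-forming cells: controls were Vav-Cre; Dpy30F/+ (a floxed and an intact allele) and knockouts Vav-Cre; Dpy30F/- (a floxed and a null allele). Where Cre has acted, controls thus keep 1 intact allele. Control and knockout of the same number come from the same litter, 3 litters in all. In mitochondria of these cells, as elsewhere, mitoribosomes supply core subunits of the respiratory chain and of ATP synthase. Fetal HSCs divide, and dividing cells have to renew this machinery. The large subunit holds the peptidyl transferase centre and the exit tunnel for the new protein, and the small subunit binds the mRNA and holds the decoding centre. Compared with its bacterial relatives the mitoribosome has lost RNA and gained proteins found only in mitochondria.

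Levels are given as counts per 1000000 counts in genes (CPM), corrected by TMM factors, and log2 fold changes as Dpy30_KO over control with the standard error (SE) of edgeR's fit. Libraries held 31897737 to 43394700 counts in genes, of which 49.2% to 67.7% came from mitochondrial DNA. Dpy30 was at 24.6, 24.2 and 31.6 CPM in controls 1 to 3 and at 7.93, 5.95 and 13.7 CPM in knockouts 1 to 3, without overlap; counts are per gene and do not separate a deleted part. Knockout 3 stood apart: its log2 CPM of the members correlated with those of the other libraries at 0.52 to 0.61, against 0.70 to 0.84 for all other pairs, and its 12 HSC marker genes summed to 331 CPM, against 724 to 967 CPM in the other 5 libraries. Of 9 macrophage markers, 7 had a positive log2 fold change, with a median of 2.13 over the 9. Without overlap, 4 were higher in knockouts (Csf1r, C1qb, Cd68 and Lyz2), 44.4% against 6.39% of all genes. These 4 and Emr1 had an unadjusted p under 0.05 in edgeR, all with higher levels in knockouts. DESeq2 called 3 of the 9, with a smallest adjusted p of 0.00214. The 9 summed to 285 to 583 CPM in controls and 315 to 1435 CPM in knockouts. None of the 9 was at 0 in all libraries. Of 9 erythroid markers 5 were positive (median log2 fold change 0.03), of 5 megakaryocyte markers 4 (median 0.47) and of 5 hepatocyte markers tested 1 (median -0.82). Among these, Slc4a1 (erythroid), Afp (hepatocyte) and Ppbp (megakaryocyte) had an unadjusted p under 0.05 with a lower level in knockouts and Pf4 (megakaryocyte) with a higher one. The part of these cells in the values below was not tested, and in bulk samples fewer cells of a type and less RNA per cell cannot be told apart. It is not stated whether a sample is 1 embryo or a pool.

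The upstream sequences of 9 members whose knockout samples lay all above or all below the controls are shown first. In the large subunit 6.67% of tested members lay all above and 8.89% all below, against 6.39% and 7.74% of all genes. In the small subunit 0% lay all above and 14.8% (4 genes) all below. The smallest adjusted p of any tested member in edgeR was 0.709. The 9 members were picked by the same values that are described below. They are all such members with a single RefSeq start site in the table; Mrpl48, with 4 start sites, is described after them. They are the 200 bases before the RefSeq start site (GRCm38.p6), written 5′ to 3′ on the gene's strand. Capitals mark matches on either strand to GCGCANGCG, the core bound by NRF1, to CCGGAAG, the core bound by ETS factors such as GABP, or to AAGATGGC, the core bound by YY1. All 3 factors are known regulators of nuclear genes for mitochondrial proteins. The 3 members higher in knockouts come first.
Mrpl37 (chr4:107066867-107067066, minus strand): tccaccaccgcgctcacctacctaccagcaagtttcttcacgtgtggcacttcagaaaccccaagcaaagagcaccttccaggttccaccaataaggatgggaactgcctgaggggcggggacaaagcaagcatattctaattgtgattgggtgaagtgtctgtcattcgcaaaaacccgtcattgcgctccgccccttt
Mrpl1 (chr5:96209915-96210114, plus strand): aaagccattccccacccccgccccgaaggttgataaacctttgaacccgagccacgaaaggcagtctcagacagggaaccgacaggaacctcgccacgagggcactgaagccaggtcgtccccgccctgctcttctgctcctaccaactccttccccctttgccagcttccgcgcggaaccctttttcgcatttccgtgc
Mrpl24 (chr3:87919344-87919543, plus strand): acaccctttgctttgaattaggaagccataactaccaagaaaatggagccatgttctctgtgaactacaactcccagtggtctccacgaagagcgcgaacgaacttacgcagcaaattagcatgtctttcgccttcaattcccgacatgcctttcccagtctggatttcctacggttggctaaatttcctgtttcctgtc
The 6 below were lower in knockouts, Mrpl23 at counts too low to test.
Mrpl22 (chr11:58171464-58171663, plus strand): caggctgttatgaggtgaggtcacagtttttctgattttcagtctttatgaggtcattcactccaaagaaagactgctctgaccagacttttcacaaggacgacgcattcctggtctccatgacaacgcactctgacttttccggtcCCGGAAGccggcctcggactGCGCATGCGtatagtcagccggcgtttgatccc
Mrpl3 (chr9:105053068-105053267, plus strand): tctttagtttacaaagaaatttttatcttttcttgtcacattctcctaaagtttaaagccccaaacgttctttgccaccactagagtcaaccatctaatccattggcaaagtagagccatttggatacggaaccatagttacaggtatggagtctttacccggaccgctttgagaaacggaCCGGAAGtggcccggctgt
Mrps27 (chr13:99344586-99344785, plus strand): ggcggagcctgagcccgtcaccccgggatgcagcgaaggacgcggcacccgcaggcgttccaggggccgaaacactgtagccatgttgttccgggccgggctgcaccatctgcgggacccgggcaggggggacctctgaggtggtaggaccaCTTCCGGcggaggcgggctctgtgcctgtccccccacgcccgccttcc
Mrps11 (chr7:78782931-78783130, plus strand): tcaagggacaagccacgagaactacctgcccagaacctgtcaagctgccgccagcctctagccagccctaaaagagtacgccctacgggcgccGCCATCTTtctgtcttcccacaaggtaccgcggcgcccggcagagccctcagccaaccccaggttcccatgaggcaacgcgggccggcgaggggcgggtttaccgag
Mrps30 (chr13:118387253-118387452, minus strand): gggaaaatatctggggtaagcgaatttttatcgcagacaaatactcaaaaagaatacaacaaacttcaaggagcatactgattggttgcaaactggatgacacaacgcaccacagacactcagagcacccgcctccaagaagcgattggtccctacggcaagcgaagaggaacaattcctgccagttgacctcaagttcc
Mrpl23 (chr7:142532832-142533031, plus strand): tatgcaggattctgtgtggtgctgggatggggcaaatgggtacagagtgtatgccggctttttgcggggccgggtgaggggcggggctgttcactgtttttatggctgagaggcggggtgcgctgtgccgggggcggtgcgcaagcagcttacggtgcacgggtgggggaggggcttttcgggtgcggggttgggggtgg

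Among these windows, Mrpl22 held an ETS core that starts at position -53 and an NRF1 core that starts at -33, counting the base before the start site as -1. Mrpl3 held an ETS core at -19, Mrps27 an ETS core at -48 and Mrps11 a YY1 core at -107. None of the 3 cores was found in these windows of Mrpl37, Mrpl1 and Mrpl24, which were higher, or of Mrps30 and Mrpl23, which were lower. Of the 4 windows of Mrpl48, also lower, 1 held an ETS core, at -34, and the other 3 none of the 3 cores. Windows with and without a core were thus found among the lower members. Just after the start site, YY1 cores began at position 26 in Mrpl37 and 14 in Mrps27. RefSeq windows of 300 bases (250 before and 50 after the start) were found for 67 of the 76 members. The NRF1 core was in 15 of them (22.4%; 15.4% of the 9191 tested genes with such a window), 11 of 41 of the large and 4 of 26 of the small subunit. The ETS core was in 24 (35.8%, against 20.4%) and the YY1 core in 12 (17.9%, against 5.38%). TATAAA was in 5 (7.46%, against 8.73%). NRF1 or ETS cores were in 34 of the 67 (50.7%, against 32.1%). Of the members named below, Mrpl13 and Mrps28 had no window in the table. A match describes the letters only. In GENCODE M21 Mrpl1 starts at base 96209493 and Mrpl23 at base 142532686, before the windows shown for them. Those windows thus lie inside the genes as GENCODE places them, and need not cover the start used in these cells.

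The summed level of each subunit overlapped between genotypes. The median tested member was at 12.97 CPM, against 10.85 CPM for all genes tested. The 47 genes of the large subunit summed to 780, 684 and 811 CPM in controls 1 to 3 and to 616, 882 and 762 CPM in knockouts 1 to 3, a mean of 759 ± 66.3 against 754 ± 133 CPM (SD, n = 3 per genotype). Knockout 1 was below all controls and knockout 2 above them. The 29 of the small subunit summed to 313, 315 and 345 CPM in controls and 327, 381 and 313 CPM in knockouts, a mean of 324 ± 17.7 against 340 ± 36.2 CPM (SD, n = 3 per genotype). The ratio of large to small was 2.49 and 2.35 in controls 1 and 3 and 1.88, 2.31 and 2.44 in knockouts, with control 2 between knockouts 1 and 2. For all 3 quantities the genotypes overlapped, and litters went in different directions.

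**Figure D1:**
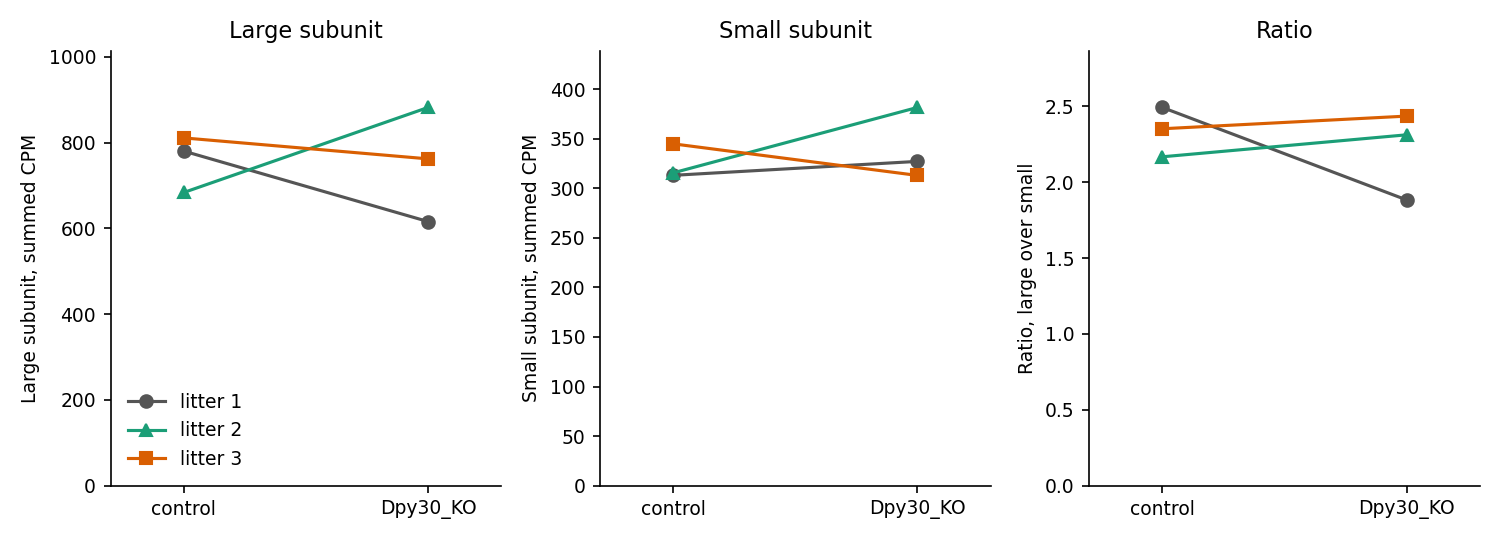
Summed CPM of the 47 large subunit genes (left), of the 29 small subunit genes (middle) and their ratio (right) in each sample, with lines joining control and Dpy30_KO of a litter. The large subunit spans 684 to 811 CPM in controls and 616 to 882 CPM in knockouts.

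Gene by gene, 72 members had enough counts to be tested, 45 of the large and 27 of the small subunit. In edgeR's quasi-likelihood test no member passed an adjusted p of 0.05. Neither did any of the 13646 genes tested (0%), and 582 genes higher (4.26%) and 306 lower (2.24%) had an unadjusted p under 0.05. DESeq2 called 138 genes of 13390 (1.03%), none of them a member. The smallest adjusted p among members was 0.709 in edgeR and 0.197 in DESeq2, both for Mrpl37. In the large subunit 22 log2 fold changes were positive and 23 negative, with a median of -0.05 and a range from -1.94 to 1.73. In the small subunit 15 were positive and 12 negative, with a median of 0.04 and a range from -1.72 to 1.26. The median over all genes tested was 0.01. The sign of either median depended on the scaling: with library size only they were 0.15 and 0.22 (all genes 0.23), and with upper-quartile scaling -0.18 and -0.089 (all genes -0.10). It depended on single libraries too: the large subunit's was 0.04 without knockout 1 and -0.31 without knockout 2, and the small subunit's -0.067 and -0.018.

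Unadjusted p-values under 0.05 were found for 4 large subunit members, 3 higher (Mrpl37, Mrpl1 and Mrpl24) and 1 lower (Mrpl48), and for no small subunit member in edgeR (1 in DESeq2, Mrps17). The 3 knockout values lay all above the 3 control values in 3 of 45 large subunit members (6.67%; all genes 6.39%) and in 0 of 27 small subunit members. They lay all below in 4 of 45 large subunit members (8.89%; all genes 7.74%) and in 4 of 27 small subunit members (14.8%). The shares in the large subunit are close to those of all genes, and that of the small subunit rests on 4 genes. With library size only, an alternative chosen after seeing the data, 4 were higher and 0 lower in the large and 3 higher and 3 lower in the small subunit, with 9.29% of all genes then higher and 4.05% lower. With upper-quartile scaling, likewise chosen after seeing the data, 3 were higher and 6 lower in the large and 0 higher and 5 lower in the small subunit, with 4.93% of all genes higher and 10% lower. Without knockout 3 the counts were 3 higher and 9 lower in the large subunit and 1 higher and 6 lower in the small subunit, while 12.4% of all genes were then higher and 12.5% lower. Within litters, 6 of the 72 members were higher in the knockout in all 3 (8.33%; all genes 12.3%) and 18 lower in all 3 (25%; all genes 15.9%), 11 of these 18 in the large subunit. The median difference in log2 CPM in litters 1, 2 and 3 was -0.47, 0.17 and -0.24 in the large and -0.13, 0.00 and -0.22 in the small subunit. Over all genes tested it was 0.02, -0.08 and -0.17.

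**Figure D2:**
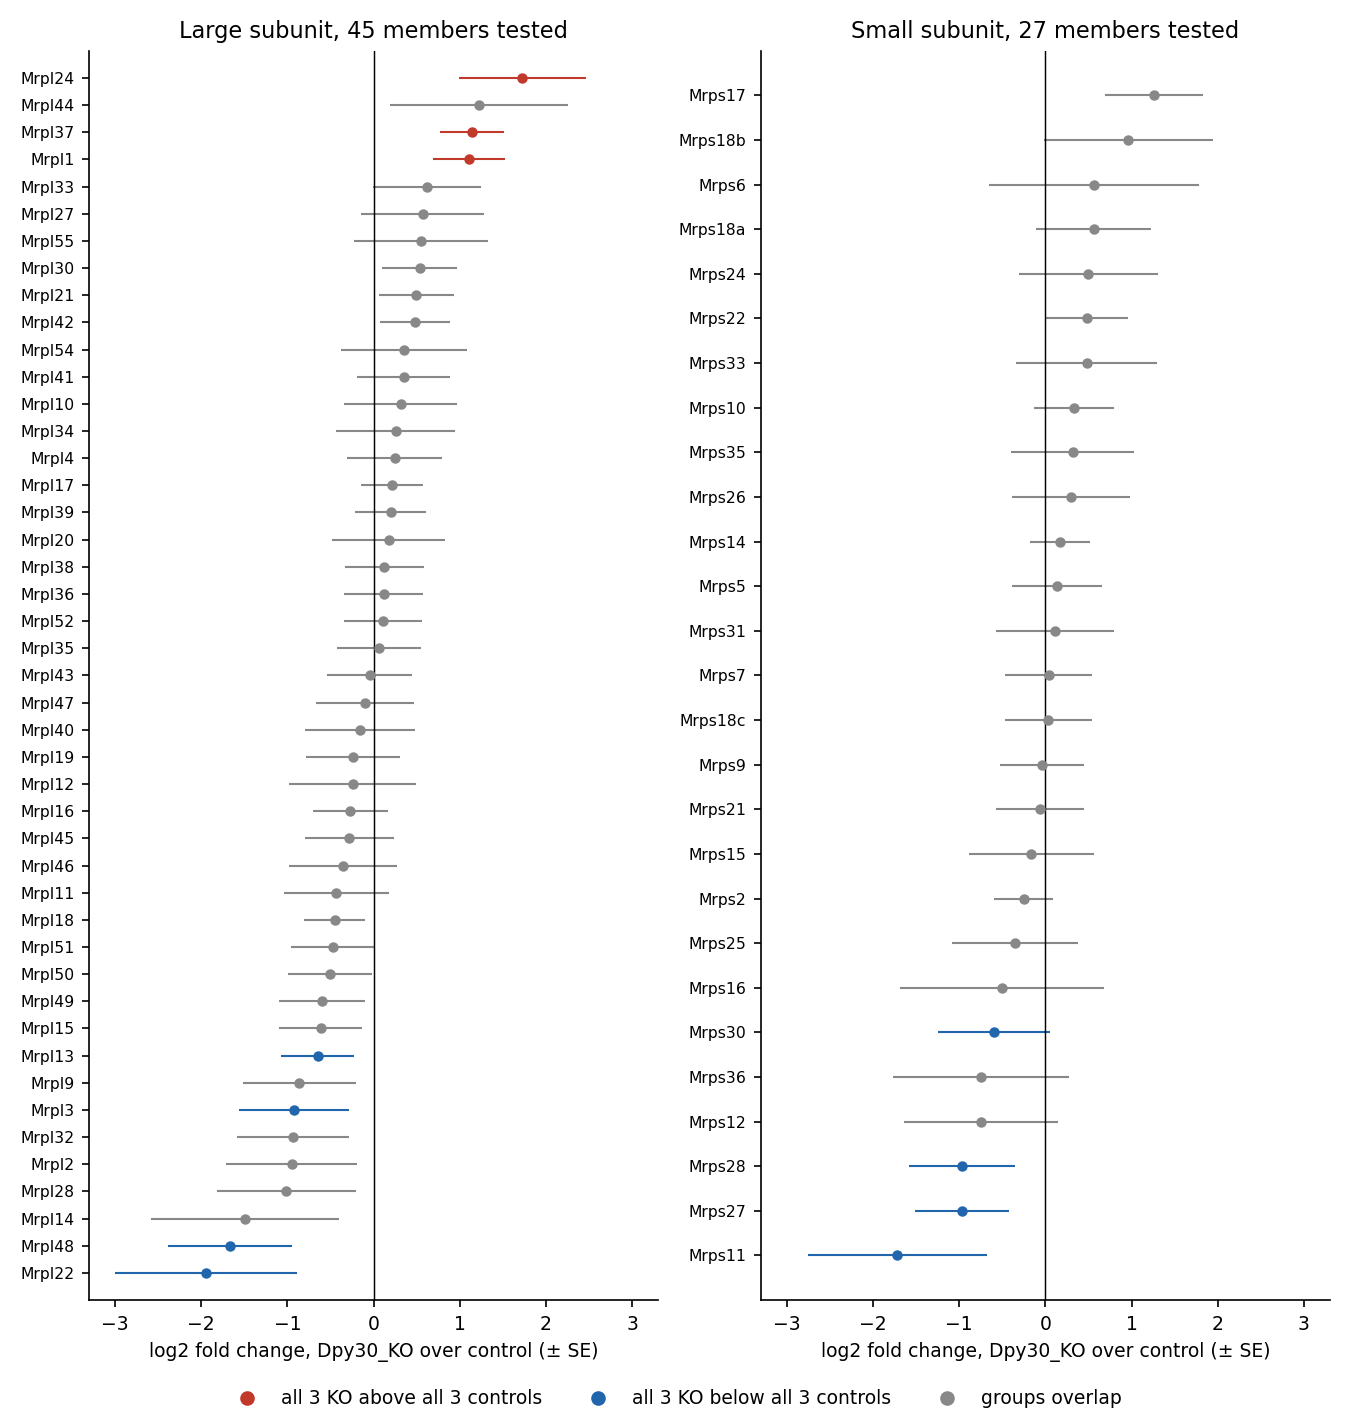
Log2 fold change (x axis, Dpy30_KO over control) with its SE for the 45 large (left) and 27 small subunit members tested (right), ordered by size. Red marks the 3 members whose knockouts all lie above the controls, blue the 8 whose knockouts all lie below, and most SE bars cross or come near 0.

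Mrpl37, a protein of the large subunit found only in mitochondria (chromosome 4, 107055874 to 107066868, minus strand), was at 17.5, 13.1 and 16.1 CPM in controls and 31.5, 26.4 and 45.1 CPM in knockouts. Every knockout was above every control, by a log2 fold change of 1.14 ± 0.37 (SE; adjusted p = 0.709 in edgeR). It was the single member with an unadjusted p under 0.05 that stayed there with litter as a block; Mrpl1, Mrpl24 and Mrpl48 did not. Without knockout 3 the log2 fold change was 0.91. Mrpl37 shares its promoter region with Cyb5rl, a reductase gene on the opposite strand whose start lies 120 bp away. Cyb5rl was at 4.28, 4.15 and 0.431 CPM in controls and 0.151, 0.165 and 0 CPM in knockouts. It was thus lower without overlap where Mrpl37 was higher (log2 fold change -4.76 ± 1.72, SE; adjusted p = 0.729 in edgeR).

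Mrpl1 forms the protein part of the L1 stalk, the mobile arm beside the exit site for tRNAs (chromosome 5, 96209493 to 96266727, plus strand). Its level was 9.84, 9.55 and 12.6 CPM in controls and 29.0, 21.8 and 18.3 CPM in knockouts. All knockouts were higher, with a log2 fold change of 1.11 ± 0.42 (SE; adjusted p = 0.733 in edgeR). Mrpl24, which lies at the rim of the exit tunnel (chromosome 3, 87919506 to 87923672, plus strand), was at 3.28, 4.17 and 1.93 CPM in controls and 6.79, 7.36 and 16.9 CPM in knockouts. The groups did not overlap, and knockout 3 was well above the other two. The log2 fold change of Mrpl24 was 1.73 ± 0.74 (SE; adjusted p = 0.762 in edgeR) and 1.19 without knockout 3. On the other strand Rrnad1 covers part of the exons of Mrpl24 (26.3% of bases), and whether the counting used strand is not given in the sources used here.

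Mrpl48 sits in the central protuberance, the crest of the large subunit (chromosome 7, 100545751 to 100608301, minus strand). It was at 7.04, 13.8 and 13.8 CPM in controls and 5.16, 4.19 and 1.57 CPM in knockouts. All knockouts were lower, by a log2 fold change of -1.67 ± 0.72 (SE; adjusted p = 0.766 in edgeR), with control 1 close to knockout 1. Its unadjusted p was above 0.05 in 5 of the 6 fits that left out 1 sample. The pseudogene Mrpl48-ps had 13, 174 and 80 counts in controls and 2, 17 and 10 in knockouts, so reads of near-identical sequence may be split between both.

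Mrpl22 and Mrpl24 both line the region of the exit tunnel, and their values went in opposite directions. Mrpl22 (chromosome 11, 58171661 to 58179565, plus strand) was at 2.62, 4.31 and 4.08 CPM in controls and 1.74, 0.689 and 0.428 CPM in knockouts, the lowest log2 fold change of the large subunit at -1.94 ± 1.05 (SE; adjusted p = 0.797 in edgeR). Mrpl3, a protein that reaches toward the peptidyl transferase centre, was at 22.5, 24.2 and 31.9 CPM in controls and 18.7, 19.3 and 3.31 CPM in knockouts. Its log2 fold change was -0.93 ± 0.64 (SE) and -0.45 without knockout 3, which alone was far below the rest. Mrpl13, a conserved protein of the large subunit, was at 30.0, 31.5 and 27.3 CPM in controls and 25.3, 10.3 and 21.1 CPM in knockouts, with a log2 fold change of -0.65 ± 0.42 (SE) and -0.35 without knockout 2. Knockout 1 of Mrpl13 was close to the lowest control, knockout 3 lay further below, and knockout 2 was the lowest.

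In the small subunit the 4 members lower without overlap were Mrps11, Mrps27, Mrps28 and Mrps30. Mrps27, a pentatricopeptide repeat protein (chromosome 13, 99344786 to 99415562, plus strand, with an antisense gene over 24.2% of its exon bases), was at 16.4, 15.5 and 19.6 CPM in controls and 6.24, 14.4 and 5.66 CPM in knockouts. Knockout 2 lay just under the lowest control, and the log2 fold change was -0.97 ± 0.54 (SE; adjusted p = 0.807 in edgeR) and -1.53 without knockout 2. Mrps28 was at 10.7, 8.96 and 9.23 CPM in controls and 3.55, 5.95 and 5.28 CPM in knockouts, with a log2 fold change of -0.96 ± 0.61 (SE; adjusted p = 0.844 in edgeR). Controls of Mrps28 were tight and all knockouts were well below them. Mrps11, a protein of the platform of the small subunit, was low in all samples, at 3.11, 2.09 and 5.26 CPM in controls and 0.478, 1.27 and 1.43 CPM in knockouts. It had the lowest log2 fold change of the small subunit, -1.72 ± 1.04 (SE; adjusted p = 0.834 in edgeR). Mrps11 starts head to head with Mrpl46 of the large subunit, whose groups overlapped (log2 fold change -0.35 ± 0.63, SE).

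Mrps30 and Mrps18a are named as small subunit proteins but sit in the large subunit in structures of the mammalian mitoribosome, where they are called mL65 and mL66. Mrps30 was at 7.25, 7.84 and 7.96 CPM in controls and 3.72, 5.29 and 6.23 CPM in knockouts. The groups did not overlap, though the log2 fold change was only -0.60 ± 0.65 (SE; adjusted p = 0.914 in edgeR). Mrps18a was at 3.97, 6.61 and 13.0 CPM in controls and 10.8, 6.94 and 17.1 CPM in knockouts, which overlapped. Its paralogs Mrps18b and Mrps18c, which are small subunit proteins, also overlapped. Mrps18b was at 1.83, 2.89 and 3.63 CPM in controls and 3.82, 1.46 and 11 CPM in knockouts, and its log2 fold change of 0.96 was -0.06 without knockout 3. Mrps18c was at 12.4, 10.3 and 11.7 CPM in controls and 7.93, 11.5 and 15.8 CPM in knockouts, a log2 fold change of 0.04. Mrps36 is now known as a subunit of the 2-oxoglutarate dehydrogenase complex rather than of the mitoribosome, and was at 2.49, 1.44 and 1.75 CPM in controls and 0.881, 1.05 and 1.46 CPM in knockouts. Sorted by structure, the large subunit had 47 members tested with a median of -0.05 and the small subunit 24 with a median of 0.07. Lower without overlap were then 5 in the large (10.6%) and 3 in the small subunit (12.5%), against 7.74% of all genes. Higher were 3 in the large (6.38%) and 0 in the small subunit, against 6.39% of all genes.

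**Figure D3:**
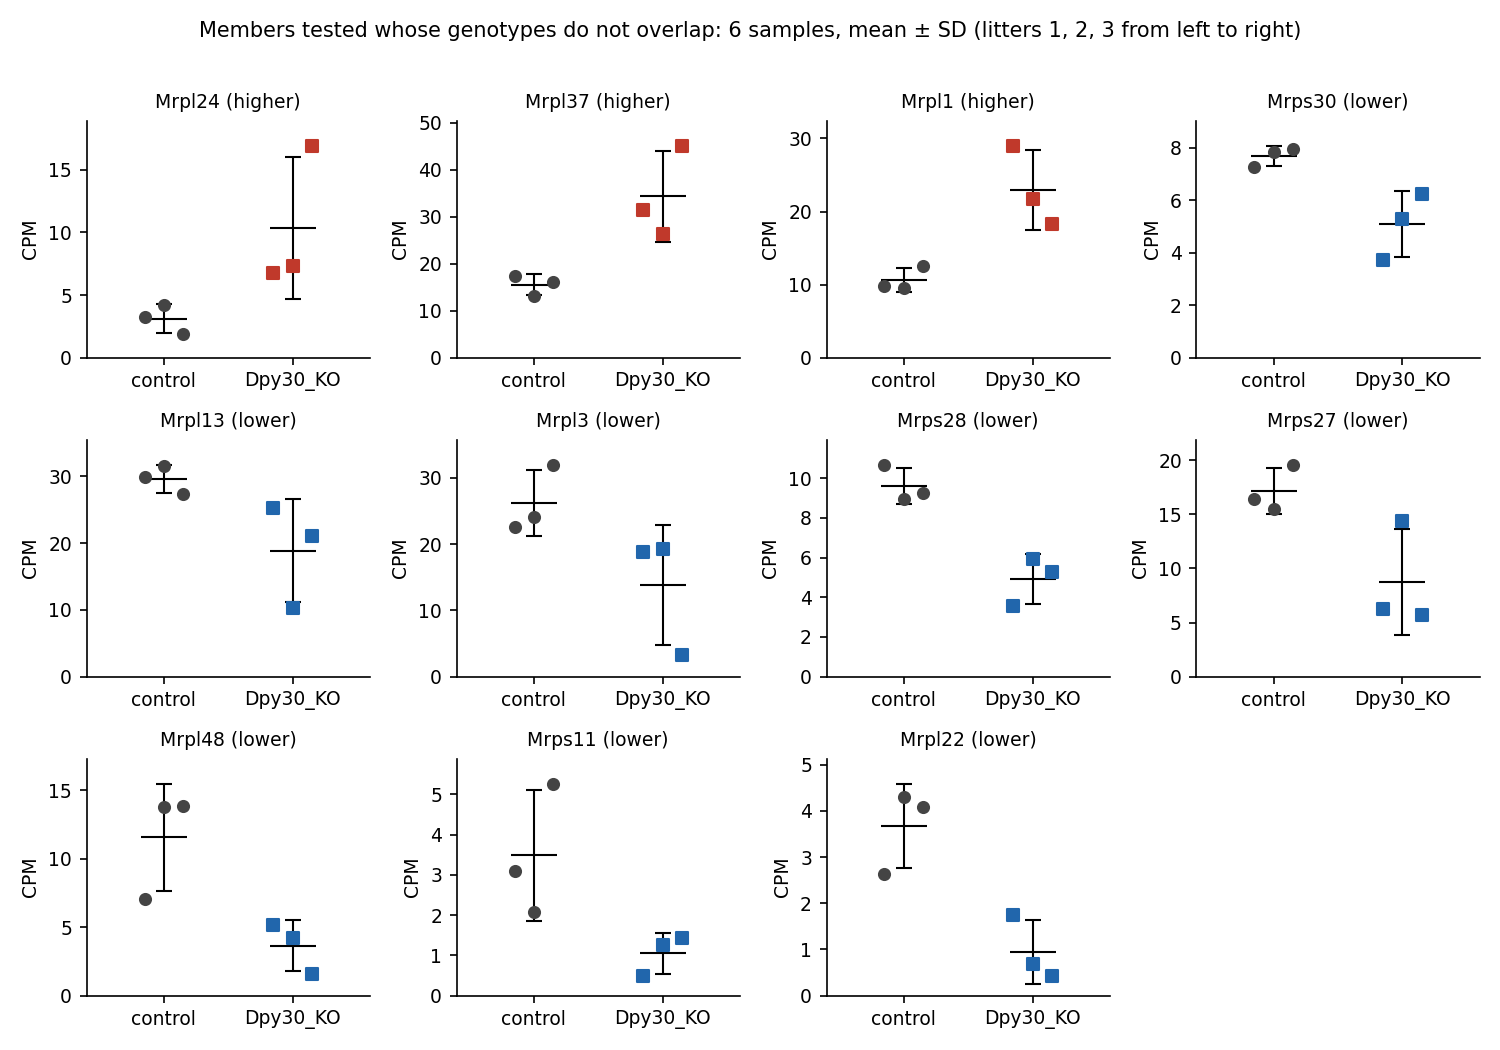
CPM of the 11 members tested whose 3 Dpy30_KO samples lie all above (red) or all below (blue) the 3 controls (grey), with mean and SD. Points run from litter 1 at left to litter 3 at right, and knockout 3 is apart from the other knockouts in Mrpl24 (16.9 CPM) and Mrpl3 (3.31 CPM).

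Some other fold changes rested on 1 library. Mrpl44, a protein with an RNase III-like fold, was at 4.25, 5.43 and 8.37 CPM in controls and 2.34, 3.75 and 36.0 CPM in knockouts, so that its log2 fold change of 1.22 became -0.97 without knockout 3. Mrps6 was at 6.08, 3.82 and 3.83 CPM in controls and 17.7, 2.18 and 0.400 CPM in knockouts, and its log2 fold change of 0.57 became -1.82 without knockout 1. Slc5a3 covers part of the exons of Mrps6 and had 1071, 1889 and 1539 counts in controls and 2990, 453 and 1212 counts in knockouts, so knockout 1 was the highest for both genes; the part of these reads in Mrps6 was not tested. Mrps17, which had the highest log2 fold change of the small subunit (1.26 ± 0.56, SE; adjusted p = 0.775 in edgeR), was at 8.01, 12.5 and 8.64 CPM in controls and 12.3, 40.9 and 16.5 CPM in knockouts. Knockout 1 of Mrps17 lay within the controls, and the log2 fold change was 0.57 without knockout 2. Mrpl14, at the face that meets the small subunit, was at 1.11, 4.01 and 4.04 CPM in controls and 1.18, 0.524 and 1.54 CPM in knockouts, with control 1 among the knockouts. Its log2 fold change of -1.49 did not rest on 1 library, and ran from -1.89 to -1.16 when each sample was left out in turn.

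Members varied more among knockouts than among controls. The highest of the 3 samples was a median of 1.67 times the lowest in controls and 2.46 times in knockouts. It was over 4 times the lowest for 2 members in controls and for 15 in knockouts. The widest in controls was Mrpl28, at 6.19 times, and the widest in knockouts was Mrps16, at 50.6 times. Mrps16, a conserved small subunit protein, was at 4.80, 6.23 and 5.31 CPM in controls and 4.18, 7.22 and 0.143 CPM in knockouts, so knockout 3 alone was low. All genes shared this: over all genes the median SD of log2 CPM was 0.49 among controls and 0.89 among knockouts, and over the members 0.38 and 0.68.

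**Figure D4:**
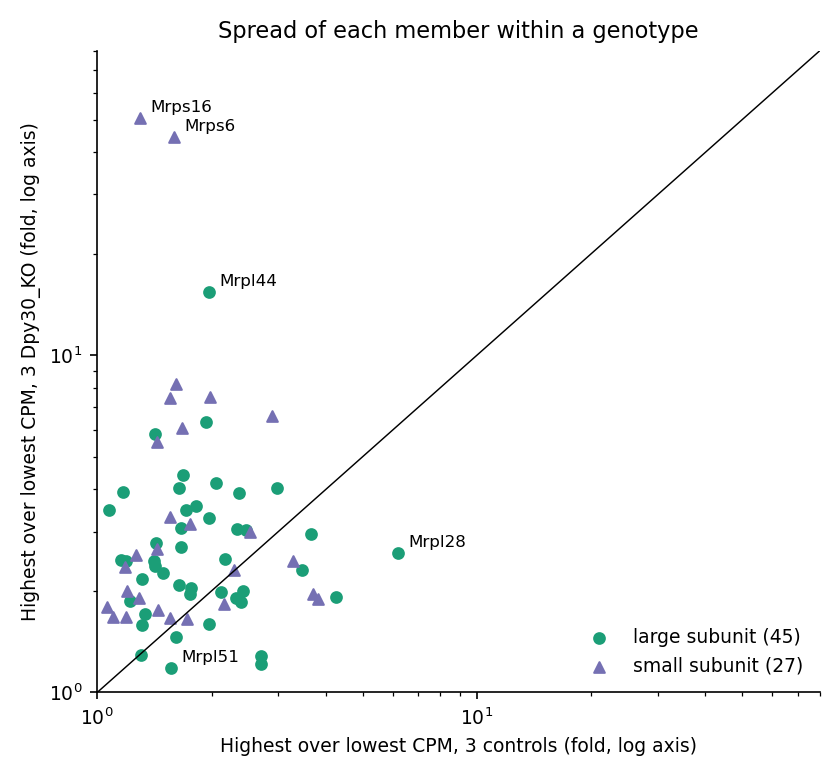
Highest over lowest CPM of each tested member within the 3 controls (x axis) and within the 3 Dpy30_KO samples (y axis), both on log axes, with a line of equal spread. Most points lie above the line, with Mrps16 at 50.6-fold and Mrps6 at 44.4-fold in knockouts.

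Per length of the longest coding transcript in GENCODE M21, the highest members of the large subunit by the mean of both genotypes were Mrpl52, Mrpl42 and Mrpl33. Counts are per gene, and all exons together are longer than that transcript: 1109 against 463 bp in Mrpl52, 3682 against 666 bp in Mrpl42 and 7326 against 478 bp in Mrpl33. The order thus depends on the length chosen, and no order by exon length was made. In controls alone Mrpl18 (30.3 CPM per kb) and Mrpl16 (27.9 CPM per kb) were above Mrpl33. Mrpl52 was at 38.0 ± 6.65 CPM per kb in controls and 41.2 ± 16.6 CPM per kb in knockouts (SD, n = 3 per genotype). Mrpl42 was at 32.7 ± 8.77 and 45.7 ± 16.8 CPM per kb, and Mrpl33 at 26.9 ± 15.7 and 41.3 ± 16.5 CPM per kb. These 3 did not differ from one another beyond their spread. In the small subunit Mrps21 led with 30.7 ± 5.50 CPM per kb in controls and 29.4 ± 13.1 in knockouts. By the mean of both genotypes Mrps2 came next at 18.8 ± 3.46 and 15.8 ± 4.91 CPM per kb, and then Mrps15 at 17.2 ± 8.43 and 15.3 ± 10.7 CPM per kb. In knockouts alone Mrps22 (17.5 CPM per kb) and Mrps24 (16.8 CPM per kb) were above both. The genotypes overlapped in CPM for all 6. By origin, 46 tested members with a bacterial counterpart had a median log2 fold change of 0.04, and 24 found only in mitochondria one of 0.11. By place, the medians were -0.25 for 6 members of the central protuberance, 0.20 for 7 around the exit tunnel and -0.24 for 3 of the L7/L12 stalk, which recruits translation factors.

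The other 4 members had too few counts to test. Mrpl23, another protein of the exit tunnel (chromosome 7, 142532686 to 142540747, plus strand), had 22, 63 and 10 counts in controls and 1, 2 and 2 counts in knockouts. All knockouts were below all controls, and the scaled sum in controls was 19.1 times that in knockouts (95% interval 7.91 to 60.2, exact binomial, counting error only). Mrpl23-ps1, its pseudogene, had 73, 54 and 228 counts in controls and 36, 128 and 400 in knockouts, so the split of reads between both is uncertain. Mrps34 had 2, 0 and 0 counts in controls and 1, 3 and 1 in knockouts, and Mrpl53 had 1, 2 and 0 in controls and 0 in each knockout. Other GENCODE genes cover 77.8% of the exon bases of Mrps34 and 88.0% of those of Mrpl53. Mrps23 was listed at 0 in all 6 samples, which allows up to 0.0680 to 0.104 CPM in a library, and its neighbour Cuedc1 was listed at 0 too. These low values describe the deposited counts and not the cells.

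Many members share a start region with another gene. A protein-coding gene on the opposite strand started within 1000 bp of 32 of the 76 members (42.1%), against 10.8% of 21992 protein-coding genes. The latter include genes too low to test here, whereas 72 of the 76 members were tested. The share among tested genes was not counted. In 29 cases both genes were tested, and 13 had log2 fold changes of the same sign. Across these pairs Pearson's r was -0.22 and Spearman's rho -0.10, as a description over genes that share the 6 libraries, with Mrpl46 and Mrps11 counted from both sides. Mrpl44 and Wdfy1 were both positive, with Wdfy1 at 2.76, 10.5 and 3.72 CPM in controls and 17.9, 26.3 and 9.08 CPM in knockouts. Knockout 3, the highest for Mrpl44, was the lowest knockout for Wdfy1.

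Further genes of the mitoribosome and of mitochondrial translation were read from the same fit, and in edgeR none passed an adjusted p of 0.05. Of 7 mitoribosome proteins without an Mrpl or Mrps symbol, 6 had positive log2 fold changes, with a median of 0.18 over the 7. The exception was Aurkaip1, a small subunit protein, at 13.5, 12.8 and 12.8 CPM in controls and 5.64, 4.80 and 7.11 CPM in knockouts. The knockouts of Aurkaip1 were all lower and the controls tight (log2 fold change -1.15 ± 0.53, SE; adjusted p = 0.775 in edgeR). Ptcd3, another small subunit protein, was at 36.6, 51.9 and 33.0 CPM in controls and 31.4, 28.7 and 258 CPM in knockouts, so only knockout 3 was high.

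Of 26 genes for assembly and rRNA modification 25 were tested, 15 positive and 10 negative, with a median of 0.31. Malsu1, which binds Mrpl14 and keeps the subunits from joining too early, was at 18.8, 20.5 and 26.8 CPM in controls and 5.79, 14.3 and 7.91 CPM in knockouts. All its knockouts were lower (log2 fold change -1.24 ± 0.50, SE; adjusted p = 0.753 in edgeR). Rpusd3, a pseudouridine synthase, was at 0.380, 2.35 and 1.38 CPM in controls and 5.13, 8.60 and 18.6 CPM in knockouts. All its knockouts were higher (log2 fold change 2.97 ± 0.96, SE; adjusted p = 0.709 in edgeR). Of 16 translation factors and regulators 9 were positive and 7 negative, with a median of 0.11. Letm1, an inner membrane protein linked to mitoribosomes, was at 24.4, 39.1 and 40.7 CPM in controls and 53.5, 51.7 and 102 CPM in knockouts, again without overlap (log2 fold change 0.99 ± 0.37, SE; adjusted p = 0.729 in edgeR).

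The 2 rRNAs that these proteins bind overlapped between genotypes. The rRNA of the small subunit, mt-Rnr1, had a log2 fold change of -0.54 ± 0.29 (SE; adjusted p = 0.797 in edgeR), and that of the large subunit, mt-Rnr2, one of -0.42 ± 0.23 (SE; adjusted p = 0.797 in edgeR). Control 1, the library with the largest mitochondrial share, was the highest for both, and without it, an alternative chosen after seeing the data, the log2 fold changes were -0.19 and -0.16. After poly(A) selection their levels need not follow the amount of rRNA. Of 13 mitochondrial mRNAs 8 were tested, all with negative log2 fold changes and a median of -0.44, which was -0.043 without control 1. In litters 2 and 3, 5 of these 8 were higher in the knockout. The other 5 of the 13 had 0 to 17 counts in a library, where mt-Co1 had 462898 to 808445. Of the 8 tested, mt-Atp6 had only 4 to 17 counts and the lowest log2 fold change, -1.21 ± 1.09 (SE). Such low values describe the deposited counts and not the cells. The 73 nuclear subunits of the respiratory chain and ATP synthase were positive in 47 and negative in 26, with a median of 0.18, and 10 were higher (13.7%; all genes 6.39%) and 4 lower (5.48%; all genes 7.74%) without overlap. By unadjusted p the first 5 were Ndufa2 (log2 fold change 1.59), Ndufb8 (1.55), Ndufv3 (1.34) and Sdhb (0.96), all higher in knockouts, and Sdhd (-1.11). DESeq2 called Ndufa2, a subunit of complex I, at an adjusted p of 0.0244, against 0.622 in edgeR. Of 77 cytoplasmic ribosomal proteins, 13 were positive and 64 negative, with a median of -0.25, and 17 were lower (22.1%; all genes 7.74%) and 1 higher (all genes 6.39%) without overlap. In litter 2 their median difference in log2 CPM was -0.01, with 37 of 77 higher in the knockout. Those with an unadjusted p under 0.05 were Rpl9 (-1.13), Rps15a (-0.72), Rpl12 (-1.40), Rpl35a (-1.25) and Rps27l (0.89). The 27 small and 45 large subunit members, with medians of 0.04 and -0.05, lay between those of these lists, and the difference between lists was not tested.

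**Figure D5:**
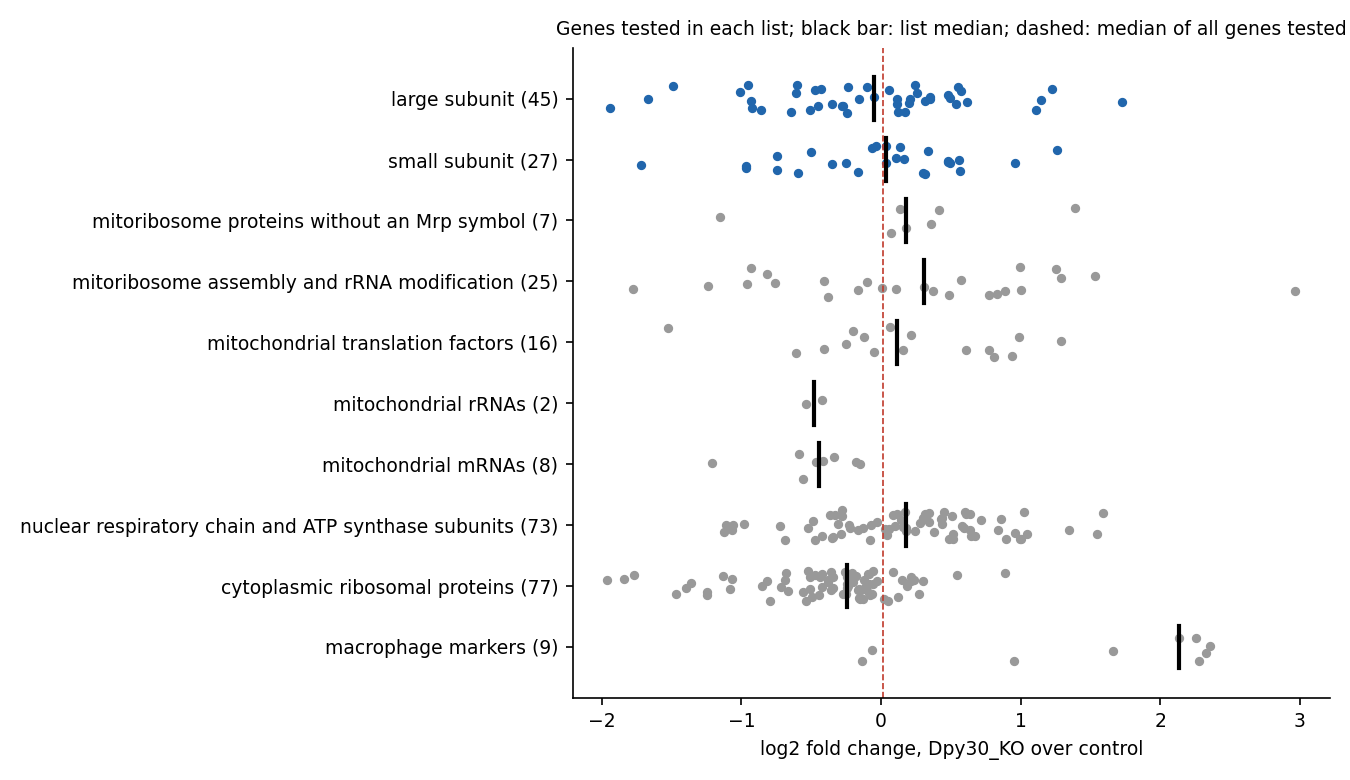
Log2 fold change (x axis, Dpy30_KO over control) of each gene tested in the members' subunits (blue) and in related lists (grey), with list medians as black bars and the median of all genes (0.01) as a dashed line. The medians are -0.05 and 0.04 for the subunits, 0.18 for respiratory chain and ATP synthase subunits, -0.25 for cytoplasmic ribosomal proteins and 2.13 for macrophage markers.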

How the data were processed

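RNA of sorted HSCs was sequenced after poly(A) selection, per the labels' protocols. The files the authors deposited hold raw read counts by gene symbol, 1 file a sample. The submitters' processing notes name CASAVA 1.8.4, TopHat2, Picard 1.126, HTSeq 0.6.0, bedtools 2.17.0 and the build mm10; annotation and use of strand are not given in the sources used here. The 5 tallies of reads given to no gene (41.0% to 51.0% of all) were left out. No molecular tags are described.

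Groups follow the labelled genotype, and sample numbers the labelled litter. edgeR 4.0.16 (R 4.3.3) was fitted to all genes kept by filterByExpr, with TMM scaling, a quasi-likelihood F test without litter, Benjamini-Hochberg adjustment over all genes tested and a threshold of 0.05. The SE was obtained by dividing the absolute log2 fold change by √F. Log2 CPM used a prior count of 2. DESeq2 1.42.0 and limma 3.58.1 (voom), other scalings and filters, litter as a block, and leaving out each sample were alternatives. Samples of a genotype come from separate litters; p-values measure the spread between them. An exact two-sided permutation test of 3 against 3 cannot go below 0.1, so none is printed.

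Litter numbers pair the samples by their labels. Deviations of same-litter samples from their group means correlated at -0.02, -0.08 and 0.00 over all genes. On simulated counts for Dpy30_KO against control (13646 genes, 200 of them given a true log2 change of 3), edgeR recovered 96% of changed genes at a biological coefficient of variation of 0.2 and 0.5% at 0.8, where DESeq2 recovered 37% and 32.7% of its calls were false. The common value here was 0.817, while the median of the single-gene values was 0.651 over all genes tested and 0.568 over the members. Log2 fold changes of the members ran from -1.94 to 1.73. Neither simulated setting thus matches the members, and recovery of changes of their size was not simulated.

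Members named were those without overlap, with an unadjusted p under 0.05, with the 3 highest or lowest log2 fold changes or the 3 highest levels per length of each subunit, those not tested, the Mrps18 paralogs, Mrps30 and Mrps36; of related lists, up to 5 genes each with p under 0.05. Aurkaip1, Ptcd3, Cyb5rl, Wdfy1, Slc5a3, Mrps16, Mrpl28, Mrpl16, Mrpl18, Mrps22 and Mrps24 were named after their values were seen. Members and lists were chosen with earlier results of these data known. Gene positions are from GENCODE M21 (GRCm38), promoters from RefSeq.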

Additional observations from a re-analysis of the deposited data

How the results depend on the processing

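There were 3 samples a group, with a common coefficient of variation of 0.817. For the 4 members with too few counts to test, the cause of the low counts was not tested. No member passed the adjusted threshold in the main fit. Of the 25 named members followed through the 15 alternatives none passed it, and their smallest adjusted p there was 0.197 (Mrpl37 in DESeq2). Over all genes DESeq2 called 138, edgeR without a filter on low counts 1 and with at least 10 counts in every sample 1, against 0. The paired fit with litter as a replicate block called 0 genes.

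The median log2 fold change of the small subunit, 0.04, was -0.15 with the replicate block, -0.10 with limma-voom, -0.089 with upper-quartile scaling and 0.22 with library size only. The medians of all genes under these settings were -0.12, -0.14, -0.10 and 0.23, and those of the large subunit -0.05, -0.04, -0.18 and 0.15. When 1 sample was left out, the median ran from -0.31 to 0.04 in the large and from -0.067 to 0.090 in the small subunit, so its sign depends on the scaling and on single libraries.

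Among the counts without overlap (alternatives chosen after seeing the data), library size only gave 0 lower in the large and 3 lower in the small subunit (11.1%), against 4.05% of all genes. It gave 4 higher in the large (8.89%) and 3 in the small subunit (11.1%), against 9.29% of all genes. Upper-quartile scaling gave 6 lower in the large (13.3%) and 5 in the small subunit (18.5%), against 10% of all genes. Without knockout 3 there were 9 lower in the large (20%) and 6 in the small subunit (22.2%), against 12.5% of all genes. Higher were then 3 in the large (6.67%) and 1 in the small subunit (3.7%), against 12.4% of all genes.

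Of 375 values of 25 named members under the alternatives, 356 kept their sign and 19 reversed, in 7 members. Mrpl52 was -0.0064 with limma-voom and -0.031 with upper-quartile scaling. Mrps15 was 0.18 and Mrps21 0.11 with library size only. Mrps18c was -0.014 with the replicate block, -0.027 with limma-voom and -0.11 with upper-quartile scaling. Mrps6 was -0.81 with the replicate block and -0.68 with limma-voom. When 1 sample was left out, values ran from -0.97 to 1.72 for Mrpl44, -0.19 to 0.38 for Mrpl52, -0.71 to 0.31 for Mrps15, -0.060 to 1.41 for Mrps18b, -0.23 to 0.25 for Mrps18c, -0.40 to 0.24 for Mrps21 and -1.82 to 1.14 for Mrps6. The cause of these changes was not tested.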
